A study of Mus musculus with 50 samples.

Results

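The 9 genes described here encode chemokines that draw T cells and monocytes into tissue, and a receptor that reads some of them: Cxcl9, Cxcl10, Cxcl16, Ccl2, Ccl3, Ccl4, Ccl5, Ccl7 and Ccr2. They were taken as the rows of the count table whose Ensembl identifier maps to these symbols, 9 of 37469 gene identifiers. All 9 passed the filter on low counts and were among the 19327 genes tested.

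RNA was sequenced from 48 whole mouse p53/MCA sarcomas and from 2 libraries of the line 402230, all of strain 129/SvJae. The 32 primary tumors arose in the gastrocnemius muscle of p53FL/FL mice, aged 6 to 10 weeks at injection, after an adenovirus carrying Cre recombinase deleted Trp53 locally and 300 µg of the carcinogen 3-methylcholanthrene (MCA) was injected. The 16 transplant tumors, which the labels call allografts, grew from 50000 cells of line 402230 injected into the same muscle of syngeneic mice, so that they share 1 source tumor and the tumor model and the source cannot be told apart. At a tumor volume of up to about 150 mm3 each mouse received 200 µg of anti-PD-1 (muDX400) or isotype control antibody. Radiation of 0 or 20 Gy to the hind limb followed, and the tumor was harvested 3 days later. The 4 treatments were each given to 8 of the sequenced primaries and 4 transplants, and tumors given 0 Gy and the isotype control are called untreated. All tumors thus came from the p53/MCA model, and the Trp53 genotype of the transplant hosts is not given in the sources used here. The labels do not say that libraries of a group came from separate cohorts, so p-values measure the spread between these tumors.

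Chemokines are small secreted proteins that bind receptors on leukocytes and guide their migration. Cxcl9 and Cxcl10 are classically induced by interferons and bind Cxcr3 on activated T cells and NK cells, and Cxcl16 is a membrane-bound chemokine that binds Cxcr6. Ccl2 and Ccl7 bind Ccr2, the receptor by which inflammatory monocytes leave the bone marrow and enter tissue, and Ccl3, Ccl4 and Ccl5 are inflammatory chemokines released by activated myeloid and lymphoid cells, of which Ccl3 and Ccl5 bind Ccr1.

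The members lie on 3 chromosomes of GRCm38 (mm10). Cxcl9 (ENSMUSG00000029417.9, 92321347 to 92328079) and Cxcl10 (ENSMUSG00000034855.13, 92346638 to 92348889) are neighbours on the minus strand of chromosome 5. On chromosome 11 lie Cxcl16 (ENSMUSG00000018920.11, 70453983 to 70459984, minus strand), Ccl2 (ENSMUSG00000035385.5, 82035571 to 82037453, plus strand) and Ccl7 (ENSMUSG00000035373.2, 82045712 to 82047525, plus strand). The same chromosome holds Ccl5 (ENSMUSG00000035042.2, 83525778 to 83530518, minus strand), Ccl3 (ENSMUSG00000000982.5, 83647844 to 83649355, minus strand) and Ccl4 (ENSMUSG00000018930.3, 83662584 to 83664683, plus strand). Ccr2 (ENSMUSG00000049103.14, 124101950 to 124113557, plus strand) lies on chromosome 9. Exons of Cxcl10 overlap exons of Art3, and exons of Cxcl16 overlap exons of Zmynd15, both on the opposite strand, and Gm17268 spans Ccl2 from the opposite strand without sharing an exon. The strand setting of the counting is not given in the sources used here, so reads of these pairs cannot be told apart.

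The RefSeq promoter table (GRCm38.p6) held windows for 4 of the 9 members, of which those of Cxcl9 and Cxcl10 are printed because the genes are neighbours, bind the same receptor and both rose with radiation in primary tumors. Each window runs from 250 bases before the start site to 50 bases after it, read 5′ to 3′ on the strand of the gene. Both strands were searched for the interferon-stimulated response element (GAAA, any 2 bases, GAAA), the interferon-gamma activated site TTCNNNGAA and the NF-kB motif, and matches stand in capitals.
Cxcl9 (chr5:92328030-92328329, minus strand): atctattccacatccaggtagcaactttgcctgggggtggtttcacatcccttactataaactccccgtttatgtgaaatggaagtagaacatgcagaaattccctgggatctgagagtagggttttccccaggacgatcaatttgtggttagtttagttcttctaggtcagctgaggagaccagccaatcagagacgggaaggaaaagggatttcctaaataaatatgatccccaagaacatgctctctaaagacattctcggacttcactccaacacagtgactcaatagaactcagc
Cxcl10 (chr5:92348840-92349139, minus strand): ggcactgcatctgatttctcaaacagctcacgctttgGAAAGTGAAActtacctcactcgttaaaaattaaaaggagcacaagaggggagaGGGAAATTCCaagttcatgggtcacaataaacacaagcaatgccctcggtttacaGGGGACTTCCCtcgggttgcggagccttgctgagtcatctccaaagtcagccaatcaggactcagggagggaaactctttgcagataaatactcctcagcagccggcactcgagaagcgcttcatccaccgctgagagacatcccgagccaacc
The Cxcl10 window held 1 match to the interferon-stimulated response element, starting 213 bases before the start site (GAAAGTGAAA, position -213), and 3 matches to the NF-kB motif, starting at -159, -104 and -103. The matches at -104 and -103 overlap. The Cxcl9 window held no match to any of the 3 motifs, and neither did those of Ccl3 and Ccr2. Of 32851 promoter windows in the table, 3.44% held a match to the interferon-stimulated response element, 8.3% to the interferon-gamma activated site and 8.46% to the NF-kB motif. A match shows only that these letters are in the window.

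Tumor libraries held 31810461 to 54008259 counts, and levels are given as CPM, counts scaled to a common library size over the 48 tumors. Trp53, the deleted gene, ran from 20.2 to 60.7 CPM over the 48 tumors, but a count over a whole gene says nothing of single exons and stromal cells may keep the gene, so this level does not check the deletion. The list of 9 skeletal muscle genes (Acta1, Ckm and others) varied widely among tumors of one group, with summed levels from 65.2 to 5747 CPM in untreated primaries and from 15.3 to 76578 CPM in primaries given 20 Gy and anti-PD-1. Every comparison was therefore also run without the 8 libraries highest in muscle genes. These were 4 primaries, 2 given 20 Gy and isotype and 2 given 20 Gy and anti-PD-1, and 1 transplant of each group. Among primaries the libraries left out were thus all irradiated. The 2 libraries of line 402230 went against their labels: the library labelled parental tumor held almost no Ptprc (0.114 CPM), the gene of the pan-leukocyte marker CD45, and the library labelled cell line held 81.6 CPM, within the range of untreated primaries (67.8 to 140.7 CPM on the same scale). Neither library entered the main comparisons between groups, and the library labelled parental tumor joined untreated primaries in an alternative fit.

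**Figure D1:**
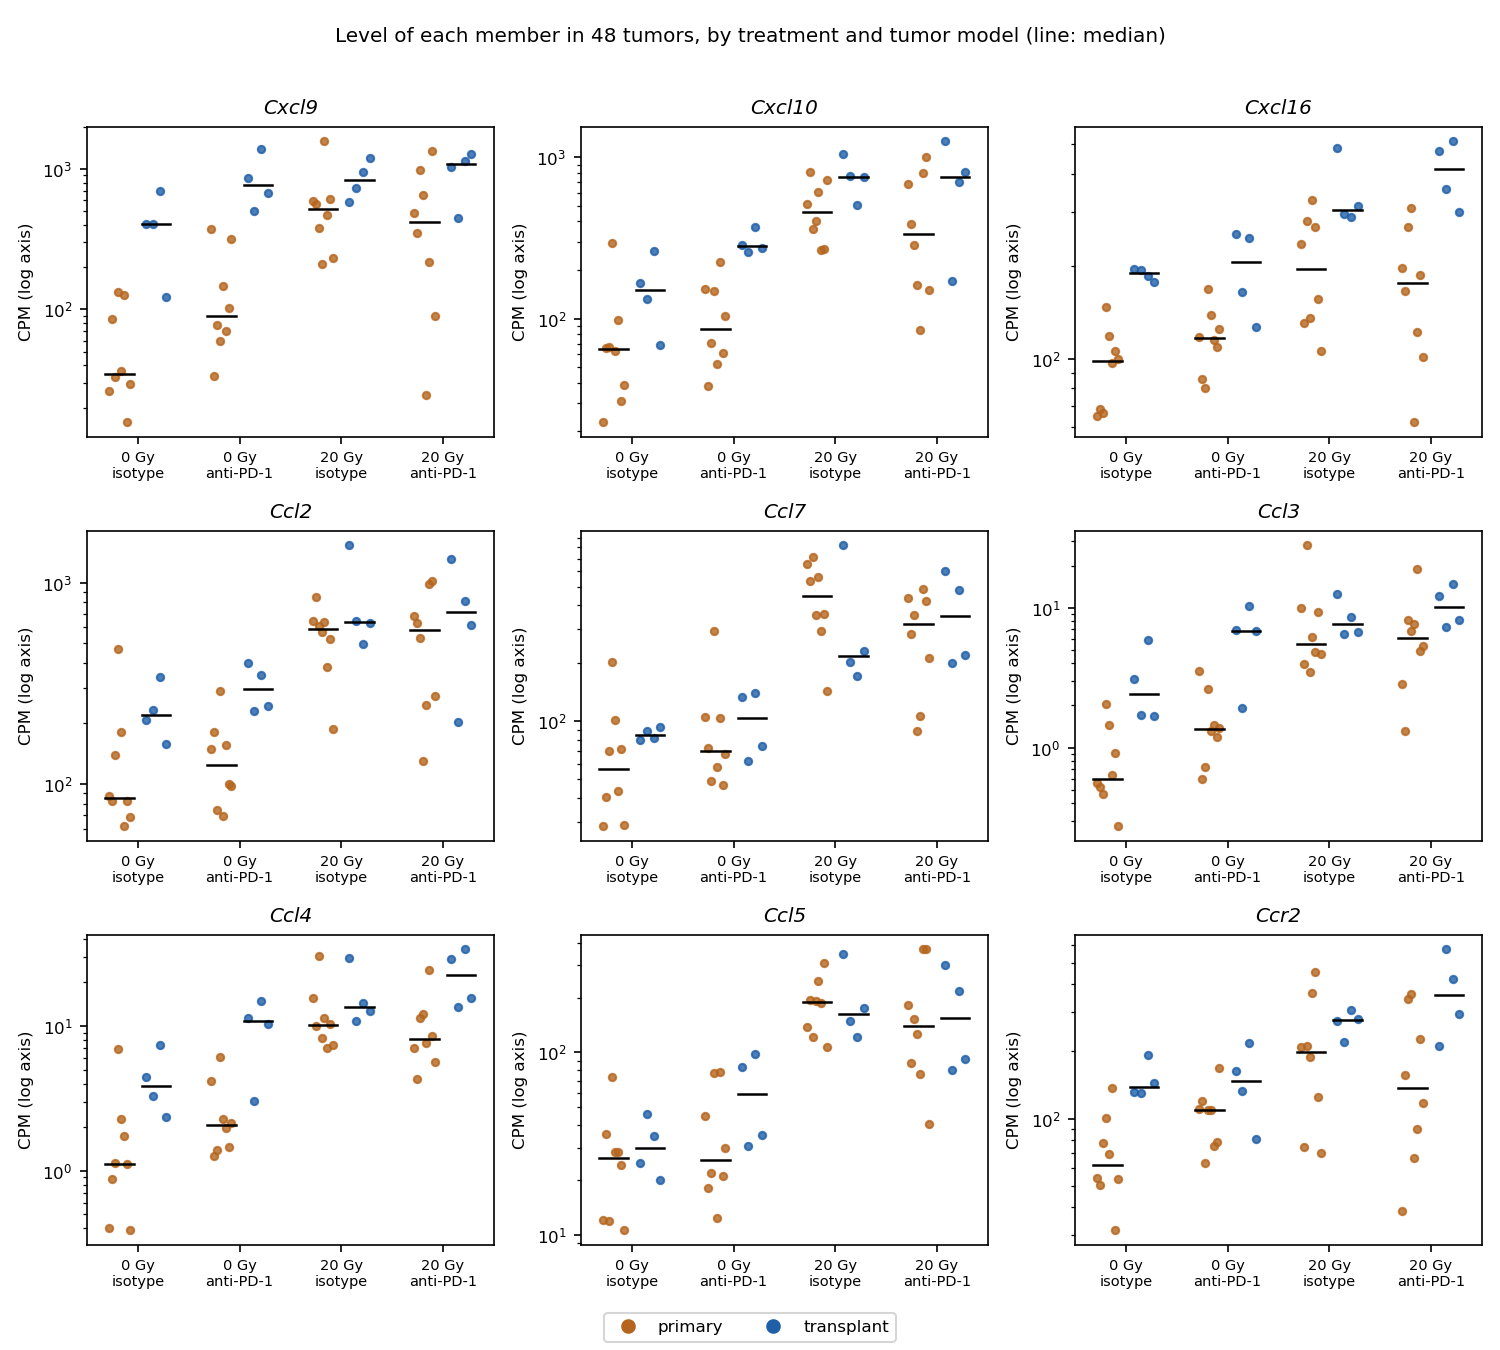
Level of each of the 9 members in every tumor, in CPM on a log axis, by treatment and tumor model (32 primary and 16 transplant libraries). Points are single tumors and black lines are group medians. Primaries given 20 Gy and isotype lay above every untreated primary for Cxcl9, Ccl3, Ccl4 and Ccl5.

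Radiation alone was compared with no treatment in primary tumors, to show which members answer radiation within this model. All 9 rose, by log2 fold changes from 1.10 for Cxcl16 to 3.37 for Ccl3, with edgeR adjusted p from 7e-06 to 0.00208. Over all genes tested, 9.19% were called higher in this comparison. The median log2 fold change was 2.63 for the members and -0.01 for all genes. In bulk tissue, more cells of a type and more RNA per cell cannot be told apart, here or in any result below.

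Both ligands of Cxcr3 among the members rose. In untreated primaries Cxcl9 stood at 15.7 CPM in the lowest library, 34.5 at the median and 132.3 in the highest, and after 20 Gy at 212, 517 and 1592 CPM. Every irradiated primary lay above every untreated primary, and the log2 fold change was 3.26 (SE 0.59, adjusted p 0.000104, edgeR), or 9.57-fold. Cxcl10 went from 22.7, 64.4 and 295 CPM (lowest, median and highest) to 267, 457 and 806 CPM, a log2 fold change of 2.54 (SE 0.48, adjusted p 0.0002, edgeR). The ranges overlapped through untreated primary replicate 4, the highest of its group at 295 CPM, and 6 of 8 irradiated primaries lay above it. Art3, which shares exon positions with Cxcl10, was at 0.489 to 61.0 CPM over the tumors, with medians from 4.30 to 8.06 CPM in irradiated primaries.

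Cxcl16 moved less. It stood at 64.9, 98.3 and 148 CPM (lowest, median and highest) in untreated primaries and at 106.2, 196 and 327 CPM after 20 Gy. Of 8 irradiated tumors, 5 lay higher than any untreated tumor. Its log2 fold change was 1.10 (SE 0.25, adjusted p 0.00139, edgeR). Zmynd15, whose exons overlap those of Cxcl16 on the other strand, went from a median of 12.5 to 43.0 CPM with a log2 fold change of 1.48 (SE 0.26, adjusted p 7.2e-05, edgeR), and how its reads were shared with Cxcl16 was not tested.

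The ligands of Ccr2 and the receptor itself rose together. Ccl2 went from 61.7, 84.9 and 471 CPM to 188, 591 and 849 CPM (log2 fold change 1.91, SE 0.41, adjusted p 0.000959, edgeR). Ccl7 went from 28.4, 56.4 and 203 CPM to 143.7, 448 and 714 CPM (log2 fold change 2.63, SE 0.44, adjusted p 3.82e-05, edgeR). For both genes the highest untreated primary was replicate 4 and the lowest irradiated primary was replicate 8. Ccr2 went from 31.6, 61.8 and 137.3 CPM to 70.1, 199 and 454 CPM (log2 fold change 1.56, SE 0.36, adjusted p 0.00208, edgeR), and 5 of 8 irradiated tumors lay above all untreated ones.

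Ccl3, Ccl4 and Ccl5 gave the clearest separation together with Cxcl9. Ccl3, a gene of low level, went from 0.273, 0.600 and 2.03 CPM to 3.46, 5.52 and 28.3 CPM, a log2 fold change of 3.37 (SE 0.49, adjusted p 7e-06, edgeR) or 10.3-fold. Ccl4 went from 0.386, 1.11 and 6.96 CPM to 7.03, 10.2 and 30.6 CPM (log2 fold change 2.76, SE 0.48, adjusted p 5.92e-05, edgeR). For both, irradiated replicate 3 was the highest library. Ccl5 went from 10.6, 26.2 and 72.9 CPM to 106.7, 190.0 and 311 CPM (log2 fold change 2.75, SE 0.45, adjusted p 3.14e-05, edgeR). For all 3 genes every irradiated primary lay above every untreated primary, as for 4 of the 9 members with Cxcl9, and for 1.45% of all genes tested.

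Leukocyte genes moved with the members. Ptprc had a median of 80.7 CPM (69.2 to 146) in untreated primaries and 162 CPM (101.4 to 344) after 20 Gy, a log2 fold change of 1.07 (SE 0.29, adjusted p 0.00817, edgeR). Of the 9 macrophage markers 4 rose, and their summed level went from a range of 1697 to 3262 CPM to 2199 to 4412 CPM. Of the 6 monocyte markers 4 rose, with sums from 406 to 1001 CPM before and from 753 to 2204 CPM after radiation, and 3 of 7 NK cell markers rose, with sums from 15.1 to 269 CPM and from 89.3 to 500 CPM. None of the 9 T cell markers passed the test, with sums from 21.3 to 87.6 CPM and from 17.1 to 172 CPM, and no marker of these lists was at 0 in all libraries of a group. Neutrophil markers had 2 of 6 called higher (list median log2 fold change 2.21), with sums from 13.6 to 79.8 CPM before and from 31.5 to 772 CPM after radiation. Dendritic cell markers had 2 of 5 called higher, with sums from 18.3 to 23.9 CPM and from 26.9 to 79.5 CPM, and none of 4 B cell markers was called. The part of these cells in the rise of the members was not tested. Without the 8 libraries highest in muscle genes, all 9 members were still called.

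**Figure D2:**
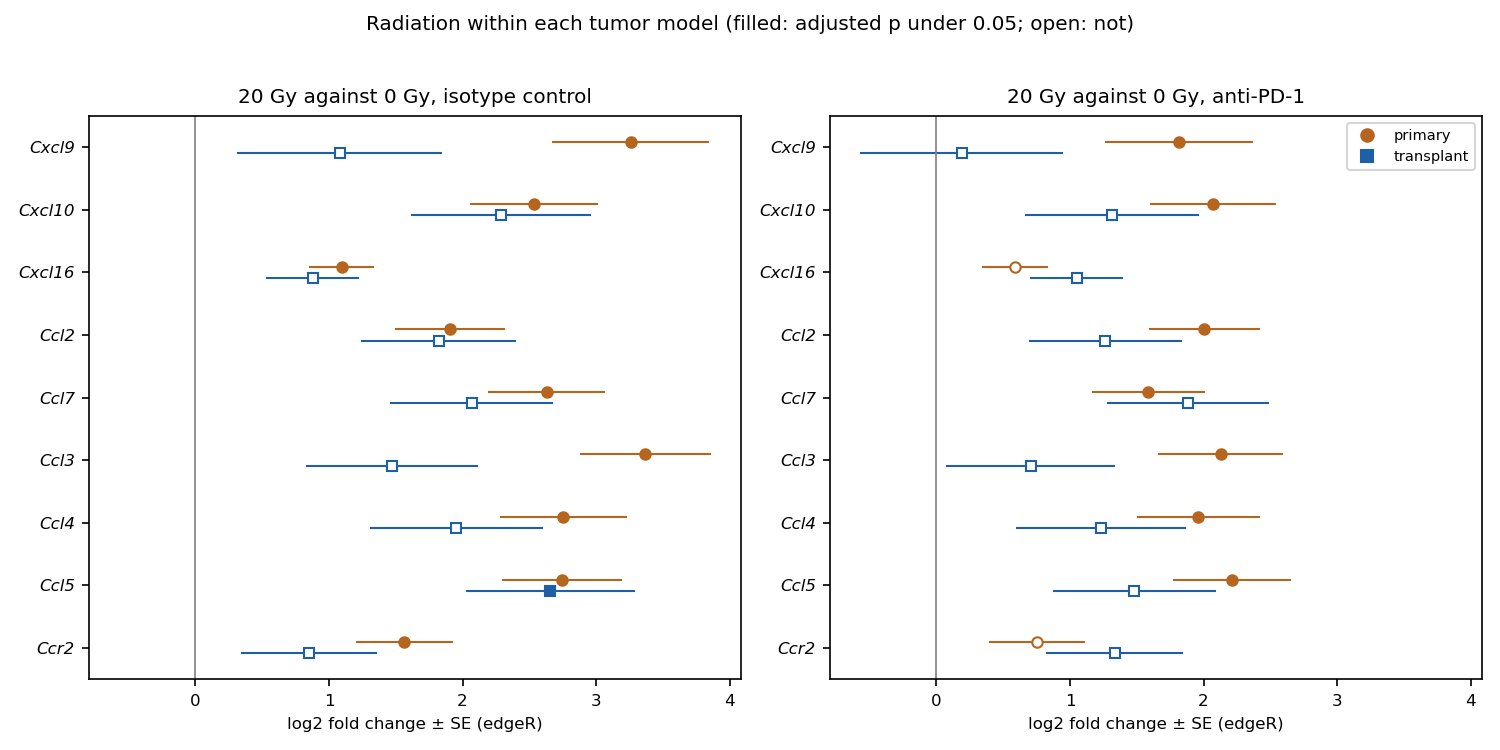
Log2 fold change of 20 Gy against 0 Gy (x axis, with standard error) for each member in primary and transplant tumors, under isotype control (left) and anti-PD-1 (right). Filled symbols passed an edgeR adjusted p of 0.05: 9 primary and 1 transplant under isotype, 7 primary and 0 transplant under anti-PD-1.

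In transplants the same comparison, radiation alone against no treatment, had 4 tumors a group. Ccl5 alone passed the test among the 9 members, although all 9 had a positive log2 fold change (median 1.82, against -0.03 for all genes) and 7 had an unadjusted p under 0.05. Over all genes 1.82% were called higher, and 2335 of 19327 had an unadjusted p under 0.05. Ccl5, which binds Ccr1, stood at 24.7, 45.9, 34.9 and 19.9 CPM in untreated transplants and at 346, 149, 120.8 and 176 CPM after 20 Gy. The groups did not overlap, and the log2 fold change was 2.66 (SE 0.63, adjusted p 0.0177, edgeR). The call was lost without untreated transplant replicate 1 (log2 fold change 2.56, adjusted p 0.0877) or 4 (2.51, adjusted p 0.107), or without irradiated replicate 1 (2.29, adjusted p 0.0676), with the change close to that of all 8 tumors, and it held under all 7 other settings.

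For 8 of the 9 members, Cxcl9 being the exception, each of the 4 irradiated transplants lay above each of the 4 untreated ones, as they did for 9.03% of all genes tested. Cxcl10 stood at 167, 131.98, 262 and 68.2 CPM before and at 1052, 764, 504 and 748 CPM after 20 Gy (log2 fold change 2.29, SE 0.67, adjusted p 0.0637, edgeR). Ccl7 stood at 79.5, 88.4, 81.4 and 92.9 CPM before and at 827, 203, 172 and 231 CPM after (log2 fold change 2.07, SE 0.61, adjusted p 0.0635, edgeR). The 4 untreated values of Ccl7 lay close together, and irradiated replicate 1 stood far above the other three. The same library was the highest for Ccl2, at 1544 CPM against 497 to 646 CPM in its group, and the untreated values of Ccl2 were 207, 234, 341 and 158 CPM (log2 fold change 1.82, SE 0.58, adjusted p 0.0993, edgeR). DESeq2 called 4 members in this comparison, limma voom 3, and a fit of the compared groups alone 7. The shares of all genes that these fits called are not given here, so their counts cannot be set against all genes.

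Cxcl9 overlapped between the groups. It stood at 405, 408, 694 and 122.96 CPM in untreated transplants and at 580.4, 730.3, 952 and 1187 CPM after 20 Gy, a log2 fold change of 1.08 (SE 0.77, adjusted p 0.657, edgeR). Untreated transplants thus had a median of 407 CPM, near the 517 CPM of irradiated primaries, a pair of groups that was not tested. Ccl3 stood at 3.10, 1.72, 5.90 and 1.68 CPM before and at 12.6, 6.52, 8.61 and 6.76 CPM after (log2 fold change 1.47, SE 0.64, adjusted p 0.319, edgeR). Ccr2 stood at 130.9, 130.6, 193 and 145 CPM before and at 273, 220.2, 306 and 280.2 CPM after (log2 fold change 0.85, SE 0.51, adjusted p 0.551, edgeR). Ptprc rose from a median of 128.99 CPM (95.4 to 222) to 443 CPM (310.2 to 508) (log2 fold change 1.57, SE 0.42, adjusted p 0.0355, edgeR), with 1 of 9 macrophage, 1 of 5 dendritic cell, 0 of 6 monocyte and 0 of 6 neutrophil markers called, and its part in the members' levels was not tested.

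Whether radiation acted differently in the 2 models was tested as an interaction. No member passed it under isotype control by edgeR, DESeq2 or limma voom, and 0.00517% of all genes did. The differences of the log2 fold changes, transplant minus primary, were below 0 for all 9 members and largest for Cxcl9 (-2.18, SE 0.95, adjusted p 0.486, edgeR) and Ccl3 (-1.90, SE 0.79, adjusted p 0.48, edgeR). These were the 2 members with an unadjusted p under 0.05, which 1908 of 19327 genes tested had. The median difference was -0.56 for the members and 0.02 for all genes, and the share of all genes below 0 was not computed. For Ccl5 the difference was -0.09 (SE 0.73) and for Ccl2 -0.09 (SE 0.69).

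Radiation was also compared on a background of anti-PD-1. In primary tumors 7 of 9 members rose, all but Cxcl16 (log2 fold change 0.59, adjusted p 0.109, edgeR) and Ccr2 (0.75, adjusted p 0.169), and 7.92% of all genes were called higher. Ccl5 rose from 12.4, 25.8 and 78.1 CPM (lowest, median and highest) to 40.3, 139.2 and 371 CPM (log2 fold change 2.21, SE 0.44, adjusted p 0.000976, edgeR). Cxcl9 went from 33.4, 89.5 and 374 CPM to 24.4, 419 and 1353 CPM (log2 fold change 1.82, SE 0.55, adjusted p 0.0266, edgeR), so that the lowest library of both groups together was an irradiated one, replicate 5. That library was also lowest for Cxcl10 and Cxcl16 in its group, and without it Cxcl16 passed the test (log2 fold change 0.73, adjusted p 0.0286). The call of Cxcl9 was lost under limma voom (adjusted p 0.0892), with no filter on low counts (0.061) and in a fit of the compared groups alone (0.127). It was also lost without replicate 2, 3 or 6 of the unirradiated or 3 or 7 of the irradiated group, with adjusted p from 0.0512 to 0.0802.

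In transplants given anti-PD-1, no member passed the test of 20 Gy against 0 Gy by edgeR, where 0.595% of all genes were called in either direction. All 9 log2 fold changes were positive, with a median of 1.26, and 6 had an unadjusted p under 0.05. For all genes the median was 0.01, and 2540 of 19327 had such a p. DESeq2 called 1 member, Ccl7, and limma voom 0. Ccl7 stood at 133.04, 61.9, 139.5 and 74.0 CPM without radiation and at 606, 202, 479 and 221 CPM with it, with no overlap (log2 fold change 1.88, SE 0.60, adjusted p 0.122, edgeR). Of all genes 5.63% were likewise higher in every irradiated tumor. Cxcl16 also did not overlap, at 255, 165, 247 and 126.8 CPM against 473, 358, 513 and 299 CPM (log2 fold change 1.05, SE 0.35, adjusted p 0.137, edgeR). Cxcl9 overlapped, at 860, 503, 1397 and 676 CPM against 1039, 451, 1140 and 1287 CPM (log2 fold change 0.19, SE 0.76, adjusted p 0.957, edgeR). The interaction of radiation with the model under anti-PD-1 called 0 members and 0.0% of all genes.

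The combination of 20 Gy and anti-PD-1 was compared with no treatment, and shares its untreated tumors with the comparison of radiation alone. In primaries all 9 members rose, with log2 fold changes from 0.88 for Cxcl16 (SE 0.24, adjusted p 0.00994, edgeR) to 3.10 for Cxcl9 (SE 0.58, adjusted p 0.000234, edgeR), where 11.4% of all genes were called higher. The ranges of all 9 overlapped with those of untreated primaries, and the share of all genes that did so was not computed. In a fit of the compared groups alone, 7 were called, without Cxcl16 (adjusted p 0.0505) and Ccr2 (0.061). Ccr2 was also lost without the libraries highest in muscle genes (0.0623).

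Leukocyte markers were higher after the combination in primaries too. Ptprc had a log2 fold change of 1.06 (SE 0.29, adjusted p 0.00922, edgeR). Neutrophil markers had 4 of 6 called higher (list median log2 fold change 3.09), with sums from 13.6 to 79.8 CPM in untreated primaries and from 37.8 to 757 CPM after the combination. Called higher were also 4 of 9 macrophage markers, 3 of 6 monocyte, 2 of 5 dendritic cell and 1 of 7 NK cell markers, and none of 9 T cell or 4 B cell markers. The macrophage sums ran from 899 to 5659.8 CPM after the combination and the monocyte sums from 501 to 1328 CPM, both overlapping the untreated range. In transplants Ptprc had a log2 fold change of 1.87 (SE 0.42, adjusted p 0.00601, edgeR), with 3 of 9 macrophage, 2 of 6 monocyte, 1 of 5 dendritic cell and 0 of 6 neutrophil markers called higher. The part of these cells in the members' levels was not tested.

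In transplants the combination raised 4 members, against 4.13% of all genes called higher: Ccl4, Ccl5, Ccl7 and Cxcl10. Ccl4, a neighbour of Ccl3, stood at 4.41, 3.28, 7.39 and 2.35 CPM in untreated transplants and at 29.1, 13.6, 34.3 and 15.7 CPM after the combination (log2 fold change 2.41, SE 0.66, adjusted p 0.0234, edgeR). Ccl5 reached 301, 79.9, 217 and 92.2 CPM (log2 fold change 2.46, SE 0.63, adjusted p 0.0145, edgeR). Each of the 4 treated tumors lay above the untreated ones for both genes, and also for Ccl7 (log2 fold change 2.14, SE 0.61, adjusted p 0.0306, edgeR). Of all genes tested 8.5% separated in this way. Cxcl10 reached 1266, 170.1, 699 and 814 CPM (log2 fold change 2.23, SE 0.67, adjusted p 0.0438, edgeR) and overlapped through replicate 2, which also held the lowest Ccl2 and Cxcl9 of its group. These calls were close to the threshold. Without untreated replicate 1 or 4, or without combination replicate 1, no member was called, and without untreated replicate 2 or combination replicate 3 only Ccl5 was called among the 9. In the 3 fits with no call the adjusted p of Ccl5 was 0.0717, 0.0806 and 0.0623, and the log2 fold changes were 2.04 to 2.36 for Ccl5, 2.19 to 2.41 for Ccl4, 1.80 to 2.17 for Ccl7 and 1.85 to 2.26 for Cxcl10. With no filter on low counts 2 members were called, and without the libraries highest in muscle genes Ccl7 was lost (adjusted p 0.0647) and Ccl2 gained (0.0443). The combination by model interaction called 0 members and 0.0% of all genes, with the largest difference for Cxcl9 (-1.83, SE 0.94, adjusted p 0.796, edgeR).

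**Figure D3:**
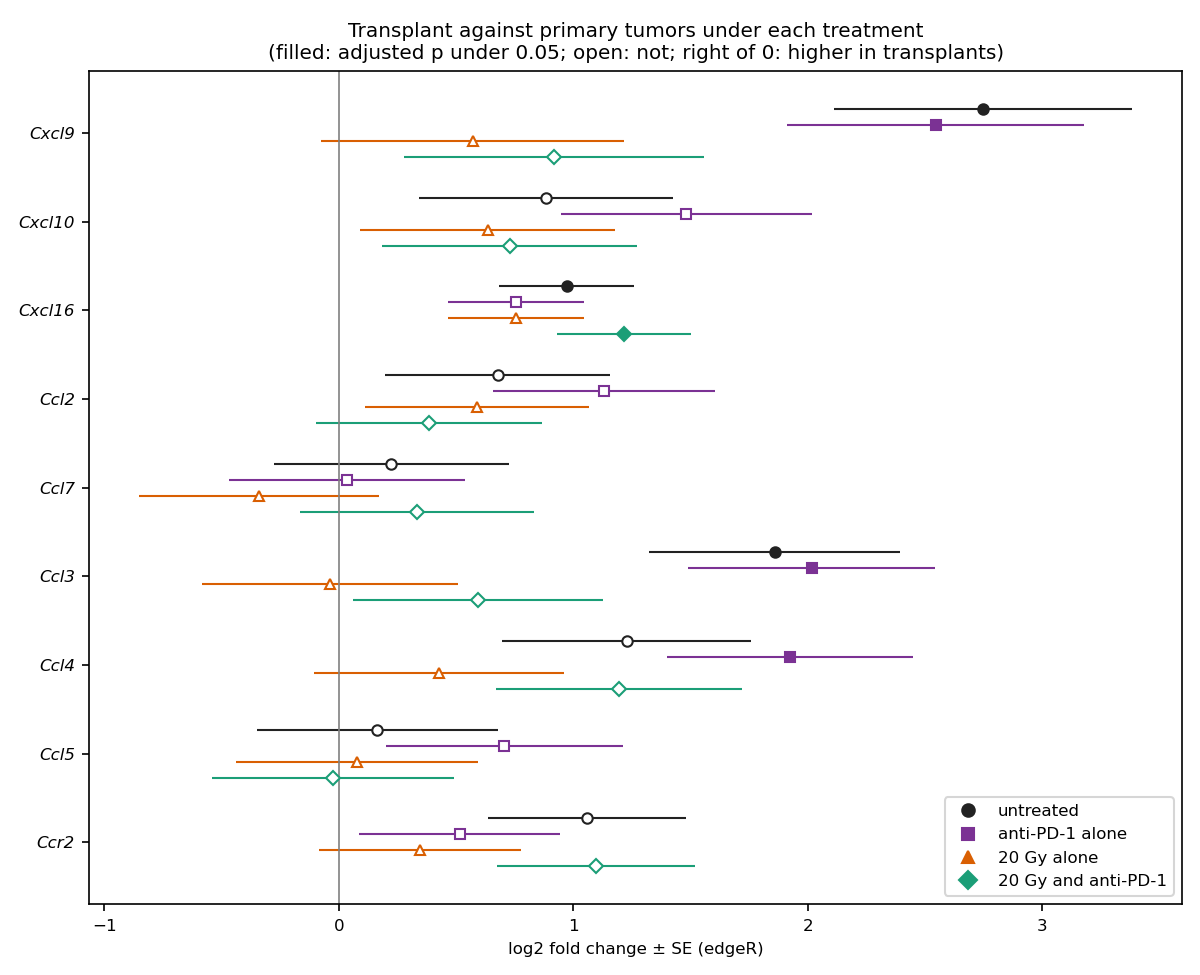
Log2 fold change of transplant against primary tumors (x axis, with standard error, above 0 where transplants were higher) for each member under the 4 treatments. Filled symbols passed an edgeR adjusted p of 0.05: Cxcl9, Cxcl16 and Ccl3 untreated, Cxcl9, Ccl3 and Ccl4 under anti-PD-1 alone, and Cxcl16 under 20 Gy and anti-PD-1.

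Transplants and primaries were then compared under each treatment, to show where the level of a member differs by tumor model. Untreated, 3 of 9 members were higher in transplants, Cxcl9, Ccl3 and Cxcl16, where 3.88% of all genes were called higher, and all 9 log2 fold changes were positive. Cxcl9 was at 405, 408, 694 and 122.96 CPM in transplants against 15.7, 34.5 and 132.3 CPM (lowest, median and highest) in primaries, a log2 fold change of 2.75 (SE 0.64, adjusted p 0.00366, edgeR) or 6.72-fold. Replicate 4 alone among the transplants lay within the primary range. Cxcl16 was at 196, 194, 186 and 177 CPM in transplants, above all 8 primaries (64.9 to 148 CPM), with a log2 fold change of 0.97 (SE 0.29, adjusted p 0.0249, edgeR). It was the 1 member of 9 without overlap, where 2.87% of all genes were higher in every transplant. Ccl3 had a log2 fold change of 1.86 (SE 0.53, adjusted p 0.0203, edgeR), and 2 of 4 transplants lay above all primaries. Ccl5 and Ccl7 had log2 fold changes of 0.17 (SE 0.51) and 0.22 (SE 0.50).

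Single libraries moved these calls. Without transplant replicate 3 the call of Ccl3 was lost (log2 fold change 1.36, adjusted p 0.135), as it was without the libraries highest in muscle genes (log2 fold change 1.34, adjusted p 0.161). The call of Cxcl16 was lost without transplant replicate 1 (adjusted p 0.065) or 2 (0.0577), where the log2 fold change was 0.95 and 0.98. Without untreated primary replicate 4, the highest of its group for every member but Ccr2, Cxcl10 (log2 fold change 1.51, adjusted p 0.0406) and Ccl4 (1.94, adjusted p 0.00612) were called as well, 5 members in all. Ptprc had a log2 fold change of 0.63 between untreated models (adjusted p 0.252, edgeR), and the sums of the macrophage markers overlapped, 1728 to 2532 CPM in transplants and 1697 to 3262 CPM in primaries. The T cell sums were 57.7 to 127.5 CPM in transplants and 21.3 to 87.6 CPM in primaries, with 1 of 9 markers called higher. Their part in the difference was not tested.

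Under anti-PD-1 alone, Cxcl9, Ccl3 and Ccl4 were higher in transplants, 3 of 9 against 3.39% of all genes. Cxcl9 was at 860, 503, 1397 and 676 CPM in transplants, above all 8 primaries (33.4 to 374 CPM), with a log2 fold change of 2.55 (SE 0.63, adjusted p 0.00893, edgeR). Of all genes 2.68% were higher in every transplant. Cxcl10 did not overlap either, at 286, 257, 367 and 274 CPM against 38.4 to 223 CPM, but did not pass (log2 fold change 1.48, SE 0.54, adjusted p 0.0807, edgeR). Ccl3 (log2 fold change 2.02, SE 0.53, adjusted p 0.013, edgeR) and Ccl4 (1.93, SE 0.52, adjusted p 0.0173, edgeR) were low in transplant replicate 2, at 1.91 and 3.02 CPM. Without transplant replicate 3, no member was called, with log2 fold changes of 2.15 for Cxcl9 (adjusted p 0.0679), 1.65 for Ccl3 (0.099) and 1.60 for Ccl4 (0.105), and the call of Ccl4 was also lost without replicate 1 (1.84, adjusted p 0.0613). Without the libraries highest in muscle genes only Cxcl9 stayed past the threshold among the 9 (adjusted p 0.0315), and with a muscle score as covariate 5 members were called.

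After 20 Gy alone no member differed between the models by edgeR, DESeq2 or limma voom, where 4.87% of all genes were called in either direction, and 1 member, Cxcl16, had an unadjusted p under 0.05. Of 19327 genes tested, 3599 had such a p. Cxcl9 was at 580.4 to 1187 CPM in transplants and 212 to 1592 CPM in primaries (log2 fold change 0.57, SE 0.65, adjusted p 0.684, edgeR). Ccl7 was at 172 to 827 CPM against 143.7 to 714 CPM (log2 fold change -0.34, SE 0.51, adjusted p 0.776, edgeR). After 20 Gy and anti-PD-1, Cxcl16 was higher in transplants, 1 of 9 against 3.04% of all genes. It was at 473, 358, 513 and 299 CPM in transplants and at 62.0, 176 and 310 CPM in primaries (log2 fold change 1.22, SE 0.29, adjusted p 0.0108, edgeR), with 3 of 4 transplants above all primaries. The call was lost without transplant replicate 3 (log2 fold change 1.08, adjusted p 0.084) and in a fit of the compared groups alone (1.21, adjusted p 0.148), and limma voom called 2 members. Ptprc was higher in transplants after 20 Gy alone (log2 fold change 1.13, SE 0.34, adjusted p 0.0451, edgeR) and after the combination (1.44, SE 0.34, adjusted p 0.0109, edgeR).

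Anti-PD-1 was compared with isotype control at each dose. No member was called by edgeR, DESeq2 or limma voom in any of these 4 comparisons, and 0.0% of all genes were called in each by edgeR. At an unadjusted p under 0.05 there was 1 member in unirradiated primaries, Cxcl9, with medians of 34.5 and 89.5 CPM (log2 fold change 1.28, SE 0.55, adjusted p 1.0, edgeR), and 0 members in the other three. In unirradiated transplants 8 of 9 log2 fold changes were positive, the largest for Ccl4 (1.17, SE 0.64). In irradiated primaries 8 of 9 were negative, the largest for Ccl7 (-0.60, SE 0.41), and in irradiated transplants they ran from -0.20 to 0.48. The interactions of radiation with antibody, in primaries and in transplants, and of anti-PD-1 with the model, at 0 and at 20 Gy, each called 0 members, 0 at an unadjusted p under 0.05, and 0.0% of all genes.

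The order of the groups was similar among members. By median, transplants given 20 Gy and anti-PD-1 were the highest of the 8 groups for 7 members, and primaries given 20 Gy and isotype for Ccl5 and Ccl7. Untreated primaries were the lowest for 8 members, and for Ccl5 primaries given anti-PD-1 alone (25.8 against 26.2 CPM). Neighbours in this order overlapped in range for all members except at 1 step for Cxcl16 (transplants given 20 Gy and isotype above transplants given anti-PD-1 alone) and 1 for Ccl7 (transplants given 20 Gy and isotype above transplants given anti-PD-1 alone). Per kilobase of exon, the level of untreated primaries was highest for Ccl2 (74.6 CPM per kilobase) and Ccl7 (70.4) and lowest for Ccl3 (0.784), while in untreated transplants Ccl2 (194) was followed by Cxcl9 (134.8) and Ccl7 (106.004).

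**Figure D4:**
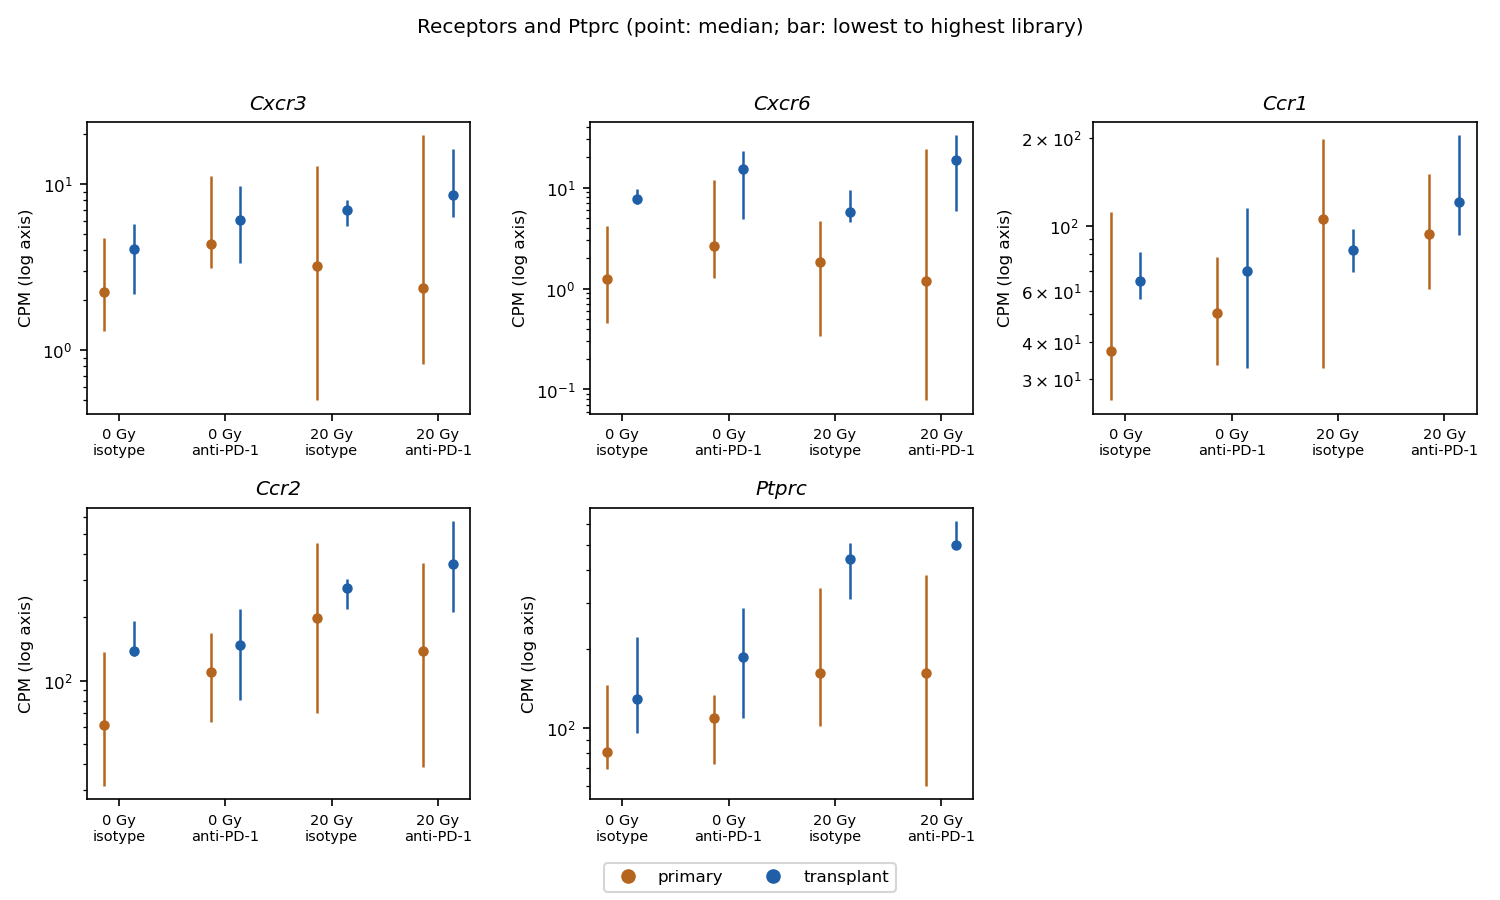
Level in CPM (log axis) of Cxcr3, Cxcr6, Ccr1, Ccr2 and Ptprc by treatment and tumor model; points are medians and bars run from the lowest to the highest library (8 primaries, 4 transplants a group). Ccr1 and Ptprc had higher medians in irradiated than in unirradiated tumors of both models, and Cxcr6 was higher in transplants by median under every treatment.

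Other receptors of these ligands are carried by myeloid cells (Ccr1) and by T and NK cells (Cxcr3, Cxcr6). In primaries given radiation alone, Ccr1 went from a median of 37.3 CPM (25.4 to 112.001) to 105.5 CPM (32.7 to 198), a log2 fold change of 1.06 (SE 0.30, adjusted p 0.0119, edgeR). Cxcr3, the receptor of Cxcl9 and Cxcl10, was at a median of 2.25 CPM (1.31 to 4.74) before and 3.23 CPM (0.499 to 12.9) after (log2 fold change 0.80, SE 0.52, adjusted p 0.292, edgeR). Cxcr6, the receptor of Cxcl16, was at 1.24 CPM (0.454 to 4.20) before and 1.83 CPM (0.340 to 4.63) after (log2 fold change 0.31, SE 0.70, adjusted p 0.788, edgeR). The receptors of the interferon-induced ligands and of Cxcl16 thus had no called change where their ligands had one.

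In transplants none of these receptors passed after radiation alone or after the combination. Untreated transplants had a median of 7.65 CPM of Cxcr6 (6.82 to 9.58) against 1.24 CPM (0.454 to 4.20) in untreated primaries, with no overlap, and the difference did not pass (log2 fold change 2.21, SE 0.81, adjusted p 0.0726, edgeR). Over the list of 14 receptors and scavengers, 2 rose and 1 fell with radiation alone in primaries, Ccr7 (log2 fold change 1.38), Ccr1 and Cx3cr1 (-1.14), and 0 were called in transplants. With radiation alone, 9.19% of all genes were called higher in primaries (8 tumors a group) and 1.82% in transplants (4 a group). After the combination 4 rose and 1 fell in primaries, led by Ccr3 (2.92) and Ccr4 (1.54), and 0 were called in transplants. There 11.4% of all genes were called higher in primaries and 4.13% in transplants. Between models, Ccr3 was higher in transplants under anti-PD-1 alone (2.51) and Ackr4 after 20 Gy alone (3.94).

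Among 15 related ligands, 9 rose and none fell with radiation alone in primaries (list median 1.81). Cxcl11, the further ligand of Cxcr3, rose by a log2 fold change of 3.74 (SE 0.60, adjusted p 2.16e-05, edgeR), from a median of 3.37 CPM (0.908 to 12.3) to 47.6 CPM (24.8 to 138.6). Ccl11, an attractant of eosinophils, rose by 2.93 (adjusted p 0.000722, edgeR) and Ccl6 by 2.76 (adjusted p 0.000108, edgeR). In transplants 1 rose, Cxcl11 (log2 fold change 2.91, SE 0.81, adjusted p 0.0446, edgeR), and after the combination 2, Cxcl11 (3.10, adjusted p 0.0181, edgeR) and Ccl12 (1.98, adjusted p 0.0339, edgeR). Of all genes, 9.19% were called higher with radiation alone in primaries, 1.82% in transplants, and 4.13% after the combination in transplants. On a background of anti-PD-1, 6 rose with radiation in primaries, Ccl11, Ccl6 and Ccl20 (2.84) the most, and 0 in transplants. There 7.92% of all genes were called higher in primaries, and 0.595% in either direction in transplants. Between untreated models Cxcl11 was higher in transplants (1.99, adjusted p 0.0364, edgeR) and Cxcl12, a stromal chemokine, lower (-1.26, adjusted p 0.0184, edgeR), with medians of 229 CPM in transplants and 509 CPM in primaries.

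Of 11 inducers of these genes (interferons, Tnf, Il1b and the factors they act through), 9 rose with radiation alone in primaries. Of all genes tested, 9.19% were called higher with radiation alone in primaries and 1.82% in transplants. The part of these inducers in the members' levels was not tested. Ifnb1, a type I interferon, rose by a log2 fold change of 2.52 (SE 0.68, adjusted p 0.00723, edgeR), Irf7 by 2.46 (SE 0.39, adjusted p 2.2e-05, edgeR) and Tnf by 2.33 (SE 0.39, adjusted p 3.9e-05, edgeR). In transplants 4 rose with radiation alone, with Irf7 (3.10, SE 0.57, adjusted p 0.00228, edgeR), Tnf (1.98, adjusted p 0.0395, edgeR) and Stat2 (1.61, adjusted p 0.00734, edgeR) the furthest from 0, and on a background of anti-PD-1 Irf7 alone was called. Between untreated models 3 were higher in transplants: Ifng (2.85, SE 0.83, adjusted p 0.0213, edgeR), Tnf (1.52, adjusted p 0.0212, edgeR) and Irf1 (1.23, adjusted p 0.0052, edgeR). Ifng, the T and NK cell interferon, had medians of 1.01 CPM (0.269 to 2.09) in untreated transplants and 0.0688 CPM (0.0227 to 0.443) in untreated primaries. In a library of line 402230, 3 counts came to 0.0682 CPM, so the Ifng level of untreated primaries rested on few counts.

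**Figure D5:**
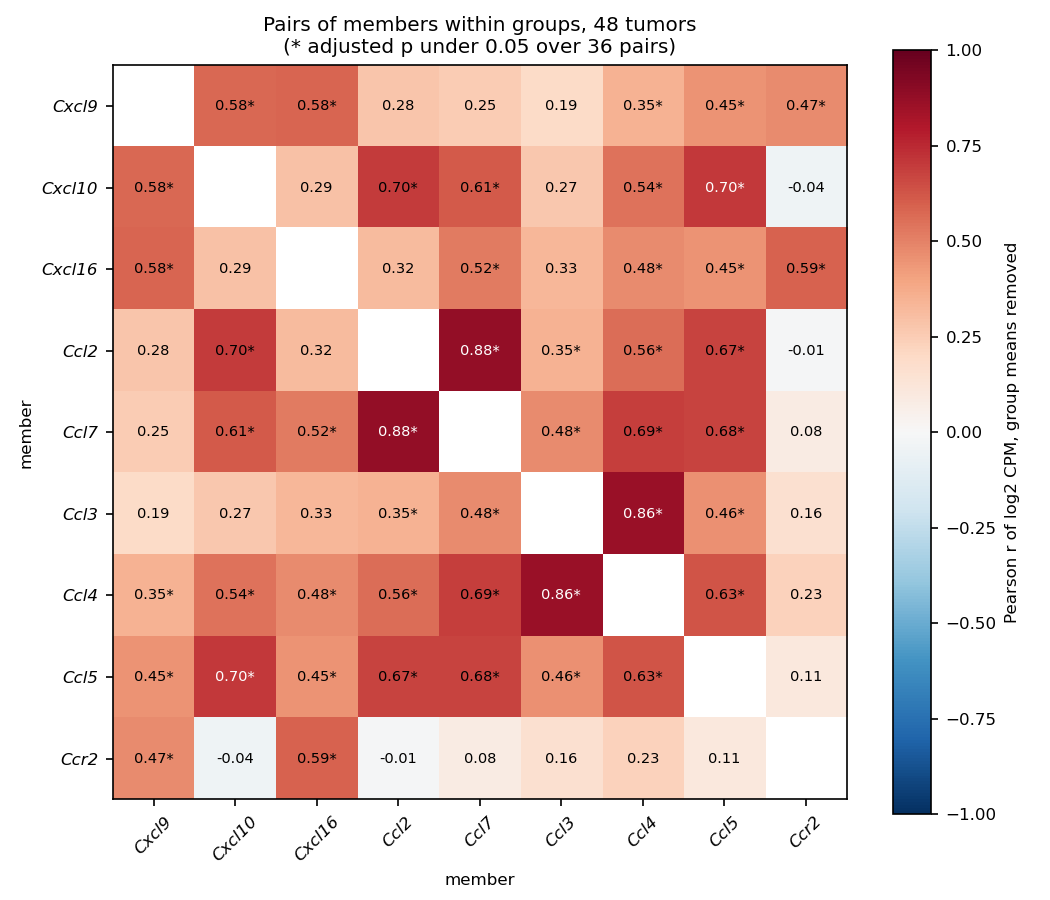
Pearson r of log2 CPM between each pair of members over the 48 tumors after the mean of each group was removed; an asterisk marks an adjusted p under 0.05 over 36 pairs. Ccl2 with Ccl7 (0.878) and Ccl3 with Ccl4 (0.865) were the closest pairs, and Ccr2 passed only with Cxcl9 and Cxcl16.

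How the members vary among tumors given the same treatment was examined after the mean of each of the 8 groups was removed. Of 36 pairs, 23 were correlated at an adjusted p under 0.05 (permutation within groups, Benjamini-Hochberg over 36 pairs), and r ran from -0.04 to 0.88 with a median of 0.47. The share among all pairs of genes was not computed, so this count cannot be called a trait of the members. The closest were pairs of neighbours on chromosome 11. For Ccl2 with Ccl7, Pearson's r was 0.878 and Spearman's rho 0.723 (permutation p 1e-05 each, adjusted 7e-05 and 0.00018), where 1e-05 is the lowest value 100000 permutations allow. For Ccl3 with Ccl4, r was 0.865 and rho 0.824 (permutation p 1e-05 each, adjusted 7e-05 and 0.00018). With the 2 tumors most distant from the first gene's median left out, r was 0.847 and 0.863. It was 0.901 and 0.838 within the 32 primaries and 0.802 and 0.965 within the 16 transplants.

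Cxcl10 went with Ccl5 (r 0.705, rho 0.606, permutation p 1e-05 and 0.00024, adjusted 7e-05 and 0.00173) and with Ccl2 (r 0.699, rho 0.521, permutation p 2e-05 and 0.00148, adjusted 9e-05 and 0.00761). Its r with its neighbour Cxcl9 was lower, 0.577 (rho 0.42, permutation p 0.00029 and 0.0123, adjusted 0.00087 and 0.0233), and 0.458 with the 2 most distant tumors left out. Ccr2 stood apart from its own ligands, with an r of -0.01 with Ccl2 (rho 0.02, permutation p 0.949 and 0.939) and 0.08 with Ccl7 (rho 0.11, permutation p 0.627 and 0.552). It went with Cxcl16 (r 0.587, rho 0.436, permutation p 0.00098 and 0.00915, adjusted 0.0022 and 0.0194) and Cxcl9 (r 0.474, rho 0.452, permutation p 0.0062 and 0.00719, adjusted 0.0108 and 0.0173). Within the 16 transplants alone those r values were 0.364 and 0.08.

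Over the 48 tumors with the groups left in, the genes most like each member in log2 CPM were named among 11732 tested genes with an average log2 CPM of at least 2. All tumors of a group share a treatment, so these r are descriptions. Cxcl9 was most like the GTPase genes Iigp1 (r 0.974), Igtp (0.964) and Gbp4 (0.964), which belong to families of similar sequence. Cxcl10 was most like Gbp3 (0.956), Zbp1 (0.940) and Ube2l6 (0.925). Ccl2 was most like Ifitm3 (0.917), Ccl7 like Isg20 (0.92) and Ccl5 like Ccrl2 (0.892). Ccl3 and Ccl4 had the same first gene, Hcar2 (0.933 with each), and shared Il1rn among their first 3. Cxcl16 was most like Cd52 (0.965) and Ccr2 like Rnase6 (0.921).

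The 2 libraries of line 402230 were set beside the untreated tumors with all 50 libraries scaled together, with no replicate and no test. The library labelled parental tumor held 0 counts of Ccl3, 3 counts of Ccl4 (0.0682 CPM) and 2 counts of Ccr2 (0.0455 CPM), where untreated transplants held 1.68 to 5.84, 2.35 to 7.31 and 127.5 to 191 CPM. A count of 0 allows up to 0.0682 CPM in that library, for counting error only. The same library held Cxcl10 at 32.5, Ccl2 at 44.6, Ccl7 at 8.55, Cxcl16 at 8.89 and Ccl5 at 5.91 CPM, and Cxcl9 at 0.818 CPM. Its macrophage gene Adgre1 and T cell gene Cd3e were at 0 counts, and Vim, a mesenchymal gene, was at 3571 CPM.

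The library labelled cell line held Cxcl9 at 14.0, Cxcl10 at 34.4, Cxcl16 at 67.8, Ccl2 at 54.4, Ccl3 at 0.562, Ccl4 at 1.21, Ccl5 at 10.1, Ccl7 at 31.3 and Ccr2 at 50.5 CPM. Each lay below the range of untreated transplants, and the values of Cxcl9, Ccl2 and Ccl5 also lay below that of untreated primaries. This library held Csf1r at 233, Adgre1 at 60.2, Pecam1 at 104.01 and Acta1 at 56.4 CPM, genes of macrophages, endothelium and muscle fibers. Which of the 2 labels applies to which library was not tested, so the values stand by library only.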

How the data were processed

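Total RNA of whole tumors was captured by oligo-dT, made into stranded KAPA libraries and sequenced in paired ends. Before deposit, the authors used Trimmomatic 0.36 for trimming and STAR for alignment to mm10, and gave 1 table of raw gene counts (whole numbers, GENCODE M17), with no normalization and no pooling. Of 37469 identifiers, 37408 were matched to symbols through GENCODE M21, which also gave the coordinates.

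Counts were filtered by filterByExpr, scaled by TMM and fitted by edgeR 4.0.16 (robust quasi-likelihood, R 4.3.3) with 1 mean for each of 8 groups over 48 tumors. Each of 14 comparisons and 7 interactions was adjusted by Benjamini-Hochberg over 19327 genes at 0.05, with no fold threshold. Lowly counted genes enter log2 values with a prior count of 2. Replicate numbers follow accession order and only name libraries. Among 136 pairs of libraries of 1 group, none agreed within counting noise (smallest chi-square over its degrees of freedom 85.6). The script was tested on simulated data, and Python 3.11.15 with numpy 2.4.6 and pandas 2.3.3 made the summaries.

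Alternatives were DESeq2 1.42.0 and its size factors, limma 3.58.1 voom, no filter, only the compared groups and a muscle score as covariate. Further alternatives were 48 leave-one-out fits, and a fit with the line 402230 library labelled parental tumor counted among untreated primaries. A fit without 8 libraries high in muscle genes was chosen after seeing the data. Members and lists were chosen with earlier results of these data known. From each list of other chemokines, receptors and inducers, up to 3 called genes with the largest change are named, besides receptors of the members. Likeness names up to 3 genes a member by Pearson r, and Ptprc and marker lists stand beside the results. Art3 and Zmynd15 were named because their exons overlap members. A receptor of the list is not reported here.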

Additional observations from a re-analysis of the deposited data

Results flagged for a closer look

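Within each group of 4 or 8 tumors, the highest and the lowest library of each member was compared with the rest by Dixon's ratio. The ratio is the gap to the nearest library over the whole range, both in log2 CPM, while levels below are in CPM. Of 72 sets of values, chance alone would mark about 3.6, and 2 were marked.

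Cxcl16 in transplants given 20 Gy and isotype had a ratio of 0.839 (critical value 0.829), since replicate 1 stood at 486 CPM and the other libraries at 288 to 314 CPM. Ccl7 in primaries given anti-PD-1 without radiation had a ratio of 0.557 (critical value 0.526), since replicate 4 stood at 294 CPM and the others at 46.6 to 105.6 CPM.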

How the results depend on the processing

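In primary tumors all 9 members were called under every alternative and every left-out library for 20 Gy under isotype. These alternatives included the fit that counted the library labelled parental tumor, which held almost no Ptprc, among untreated primaries. For every member but Cxcl10 that library lay below all untreated primaries. Adding it lowers the untreated level, so that fit is no check of the rise. Under anti-PD-1 and for the combination, the counts of called members stayed within 1.5 times the main count. Transplants given 20 Gy and isotype had 1 called member in the main fit, against 4 by DESeq2, 3 by limma voom, 2 with the muscle covariate, 7 in the compared groups alone, 2 without the libraries high in muscle genes, and 0 to 2 with 1 library left out. Under anti-PD-1 DESeq2 called 1 against 0. The combination in transplants gave 4, against 2 with no filter and 0 to 4 with 1 library left out. Between models, untreated tumors gave 3, and 2 to 5 with 1 library left out. Under anti-PD-1 alone they gave 3, against 5 with the muscle covariate, 1 without the libraries high in muscle genes and 0 to 4 with 1 library left out. Under 20 Gy and anti-PD-1 they gave 1, against 2 by limma voom, 0 in the compared groups alone and 0 to 2 with 1 library left out. Fits that leave out libraries or groups rest on fewer samples, and the cause of the other changes was not tested. Shares of all genes called are given for the main fits only, so counts under other fits cannot be set against all genes. No value called in the main or the other fit changed sign. Some uncalled values did, such as Ccl7 between models under anti-PD-1 alone (log2 fold change 0.04, and -0.14 at the lowest under other settings). Of 1395 single-gene values under other settings, 15 lost and 26 gained the call. Of 3024 with 1 library left out, 36 lost and 7 gained it. No paired analysis was made, since each library came from a separate tumor and the labels give no pairing. Among the members, depth limited Ccl3 and Ccl4 most, which stood at 0.273 and 0.386 CPM in the lowest tumor.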
